A study of Mus musculus with 2 samples.

Results

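Non-cycling CD8 T cells were selected on their RNA counts from 2 droplet libraries of tumour cells, 1 labelled control and 1 labelled motolimod. A barcode was chosen by its detected genes: it had at least 300 genes, at least 800 UMIs (unique molecular identifiers, each marking 1 captured RNA molecule) and at most 10% mitochondrial UMIs. It also had to hold a UMI of Cd3e or Cd3g and a UMI of Cd8a or Cd8b1, none of Cd4, Foxp3, Trdc, Csf1r or Csf3r, and at most 1 UMI of C1qa, C1qb and C1qc together. Fewer than 3 of the 6 cycle genes Mki67, Top2a, Birc5, Ube2c, Pclaf and Tk1 could be detected. These criteria selected 247 of the 18136 deposited barcodes, 77 of 8099 in the control library and 170 of 10037 in the motolimod library.

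Motolimod is a small-molecule agonist of TLR8, an endosomal receptor for RNA. The labels name 5 mice per group, digestion of the tumours with collagenase D and DNase I, magnetic enrichment of CD45-positive immune cells and a 3′ library. Whether each library pools those mice is not stated, nor are the tumour model, the mouse strain, the age and the dose. With 1 library per group no difference between the groups has a replicate check, no test was made, and every interval below is a 95% interval that covers counting error only.

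CD8 T cells recognise peptides on MHC class I molecules through the T cell receptor, which signals through the CD3 chains, and they kill target cells with perforin and granzymes. They also secrete interferon-γ and chemokines such as Ccl5. In tumours, repeated receptor stimulation is known to drive them toward an exhausted state marked by inhibitory receptors such as PD-1 (Pdcd1). Cells that divide express the cycle genes above, so the members are CD8 T cells sampled with little sign of division.

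The member cells carried the genes of their name well above other barcodes. Cd3d, a CD3 chain that the selection did not use, was detected in 77 of 77 control and 164 of 170 motolimod members. Its level, as UMIs of the gene per 1000000 UMIs summed over members (CPM), was 1384 and 1411 CPM, or 29.0 and 25.2 times that over all other barcodes. Nkg7, a granule protein of killer lymphocytes, stood at 3083 and 3838 CPM. Lck, the kinase that starts T cell receptor signalling, stood at 422 and 486 CPM, and Trac, the constant gene of the receptor α chain, at 299 and 435 CPM. Of the genes used in the selection, Cd8a stood at 861 and 955 CPM, Cd8b1 at 856 and 1039 CPM and Cd3e at 1138 and 1291 CPM. Both Cd8a and Cd8b1 were detected in 72 control and 155 motolimod members. Markers of other lymphoid and dendritic cells were mixed. The 9 NK genes listed summed to 563 and 1195 CPM, with 5 and 6 of them detected, and Ncr1, Klra8 and Klra4 at 0 in both libraries. Tyrobp, a signalling adaptor also used by myeloid cells, stood at 109.7 and 265 CPM, and Gzma, described below, is on that list too. The 11 dendritic cell genes summed to 479 and 310 CPM, with 6 and 7 detected and Xcr1, Clec9a, Cd209a and Siglech at 0 in both. Of the 9 B and plasma cell genes and the 10 epithelial genes, 7 each were at 0 in both libraries, and neither list summed to more than 16.2 CPM.

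Depth differed between the libraries. Members had a median of 7088 UMIs and 2130 genes in the control library and 5288.5 UMIs and 1886.5 genes in the motolimod library, and their summed UMIs were 601778 and 985727. All barcodes past the filter had medians of 14055 and 3742.5 UMIs. Of the barcode sequences, 113 occurred in both libraries, and none of them was a member in both.

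RNA of neutrophils was present in members and was higher in the motolimod library. The 12 neutrophil genes listed summed to 450 CPM in control and 2602 CPM in motolimod members, and the share of a cell's UMIs ranged up to 1.19% and 25.1%. The cytokine gene Cxcl2 stood at 103 and 1287 CPM, the alarmin genes S100a8 at 34.9 and 300 CPM and S100a9 at 110 and 447 CPM, and Il1b at 59.8 and 360 CPM. A single motolimod member held 63.9% of the S100a9 UMIs. Levels of S100a8 and S100a9 were 9.06% to 14.2% of those over all other barcodes. The defining neutrophil genes Csf3r, which the selection required to be 0, and Cxcr2 were at 0. The 15 macrophage genes listed summed to 1710 and 1822 CPM, with Lyz2 at 54.8 and 168 CPM. As an alternative, members with 1% or more of their UMIs from core genes of another lineage were left out. Then 76 control and 166 motolimod cells remained and the S100a9 ratio went from 4.08 to 0.551. S100a8 and S100a9 are among those core genes, so that fall follows from the choice of cells. Of the 5 neutrophil genes with a mean of at least 50 CPM, 2 were then at least 2-fold higher, Cxcl2 (ratio 5.20) and Il1b (6.50), and 1 was at least 2-fold lower. Their median log2 ratio went from 2.59 to 0.91. The part of this RNA in the results below was not tested beyond that alternative.

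Members made up 1.03% of the control barcodes past the filter (77 of 7484, Clopper-Pearson interval 0.813 to 1.28) and 1.83% of the motolimod barcodes (170 of 9314, 1.56 to 2.12), a ratio of 1.77 (1.35 to 2.35). Among barcodes with Cd3e or Cd3g the shares were 8.32% and 21.6%. The direction rested on the later criteria: barcodes with CD3 and CD8 genes alone were 5.88% of the control and 5.04% of the motolimod barcodes, a ratio of 0.857 (0.750 to 0.978). Of those CD3 and CD8 barcodes, 54.8% in control and 41.8% in motolimod failed on Csf1r, 62.0% and 49.5% failed on the C1q genes, and 46.6% and 22.4% failed on the cycle genes. With every barcode thinned to 1000 UMIs before the selection, members were 1.69% and 1.92%, a ratio of 1.14 (0.898 to 1.44). Thinning also loosens the criteria that exclude barcodes, so these are not the same cells: members went from 77 to 125 in control and from 170 to 173 in motolimod. Fewer cells and less RNA per cell cannot be told apart where a share depends on detecting a UMI.

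**Figure D1:**
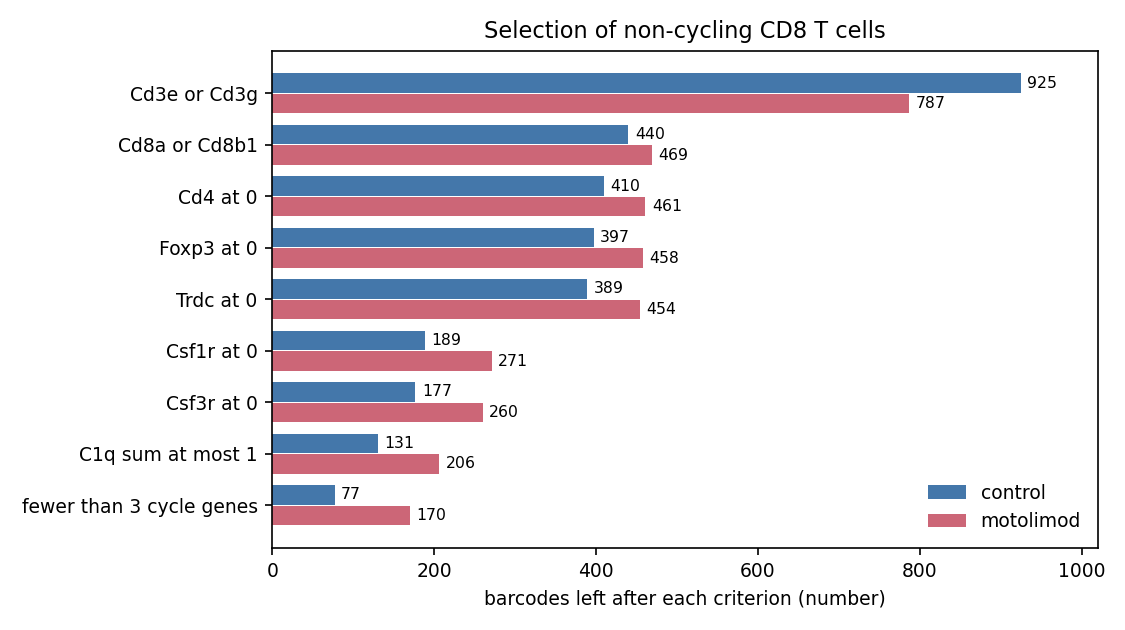
Number of barcodes (x axis) left after each criterion in turn (y axis, from top to bottom) for the control library (blue) and the motolimod library (red). The control library is ahead at the first step, 925 against 787, and behind at the last, 77 against 170.

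The cycle criterion divided the CD8 barcodes differently in the 2 libraries. Of the barcodes that met all other criteria, 54 of 131 in control (41.2%) and 36 of 206 in motolimod (17.5%) had 3 or more cycle genes and were left out as cycling. At 1000 UMIs per cell, 11.5% and 2.93% still had 3 or more. Among the members themselves, 37 control and 118 motolimod cells had no cycle gene detected, 24 and 42 had 1, and 16 and 10 had 2. Just outside the threshold, 7 control and 9 motolimod cells had exactly 3. At the C1q threshold, 16 control and 31 motolimod members held 1 UMI, and 10 and 15 otherwise qualifying barcodes held 2.

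Gene levels were compared as the ratio of motolimod to control CPM over all members, for the 2549 genes with a mean of at least 50 CPM. With motolimod, 59 of them (2.31%) stood at least 2-fold higher and 33 (1.29%) at least 2-fold lower, and 256 (10.0%) and 147 (5.77%) passed 1.5-fold. The median log2 ratio of all 2549 genes was 0.025, with quartiles of -0.24 and 0.29. In the motolimod library, 22 of the 59 higher genes stood at under 50% of their level over other barcodes, against 2 of the 33 lower genes in the control library. The leading genes named from here on had a mean of at least 100 CPM and reached that 50%.

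**Figure D2:**
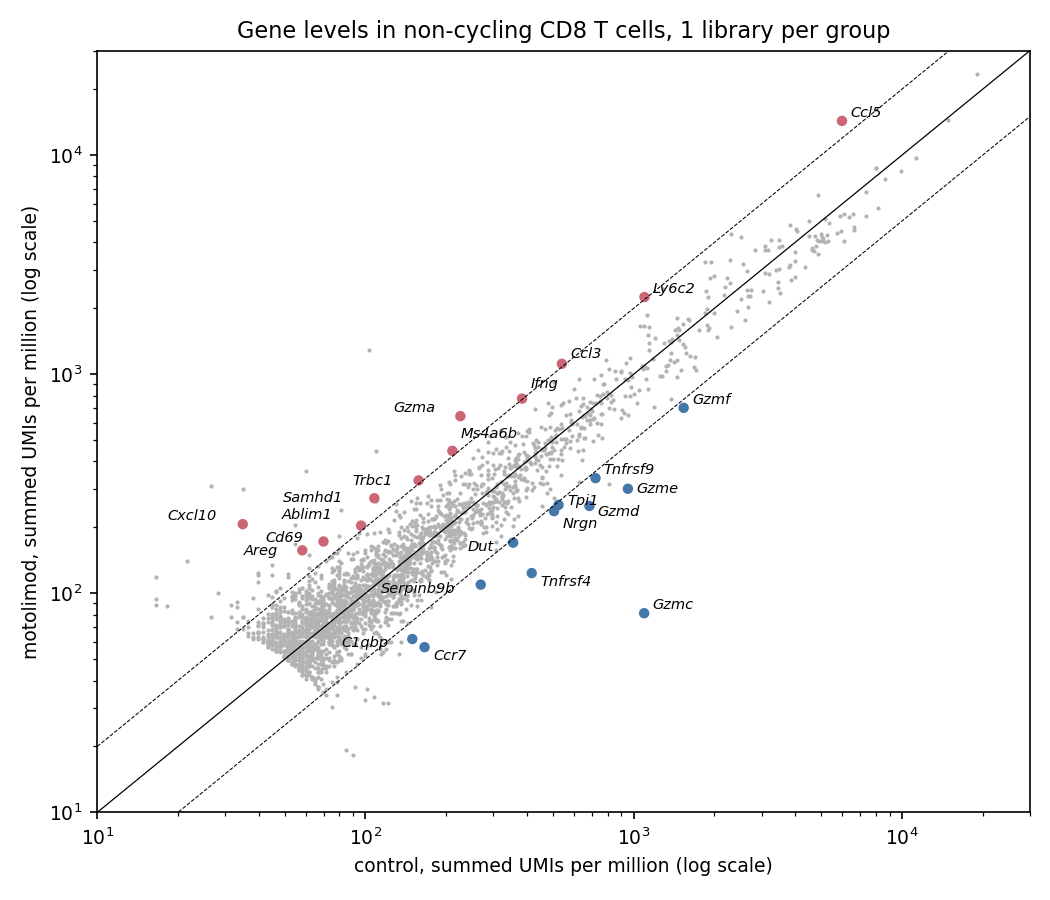
CPM summed over control members (x axis, log scale) against motolimod members (y axis, log scale) for genes with a mean of at least 50 CPM (grey), except those outside the axes. The solid line marks equal levels and the dashed lines 2-fold. The 12 highest (red) and 12 lowest (blue) leading ratios are named, with Ccl5 the most abundant of them and Gzmc the farthest below the line.

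Secreted effector genes stood higher in the motolimod members when all UMIs were summed. Of the 8 effector cytokine and chemokine genes that entered, all had a ratio above 1 and 4 were at least 2-fold higher, beside 2.31% of all genes, with a median log2 ratio of 0.97. The count of 4 was 1 as a mean over cells, in thinned cells, without the highest doublet scores and in cells with no cycle gene, and it was 2, beside 1 gene at least 2-fold lower, without each gene's top 5% of cells. Ccl5 (chromosome 11, 83525778 to 83530518, mm10), a chemokine that attracts T cells and monocytes, stood at 5986 CPM in control and 14347 CPM in motolimod members, a ratio of 2.40 (2.31 to 2.49). The higher Ccl5 was spread over the cells. It was detected in 76 of 77 and 164 of 170 members, and the median cell held 46.7 and 112 Ccl5 UMIs per 10000. Macrophage-gated barcodes, with at least 3 C1q UMIs and none of the CD3 or CD8 genes, were set beside the members. Their share with a UMI does not separate free RNA from RNA that macrophages make themselves. Of the macrophage-gated barcodes, thinned at random to 1000 UMIs each, 6.43% and 10.4% held a Ccl5 UMI, against 89.6% and 92.3% of thinned members.

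The sums of the other secreted factors rested largely on few cells, while for Ccl4 the median cell was higher with motolimod too. Ifng, which encodes interferon-γ, stood at 384 and 775 CPM (ratio 2.02, 1.74 to 2.35), while the median cell held 1.61 and 1.53 UMIs per 10000 and 27.3% and 25.4% of thinned members held a UMI. In the motolimod library the top 5 cells held 54.1% of the Ifng UMIs. Ccl3 and Ccl4, chemokines that attract monocytes and T cells, stood at 540 and 1117 CPM and at 1286 and 2450 CPM. For Ccl3, the median cell held 1.27 UMIs per 10000 in control and 0 in motolimod, and 18.3% of thinned motolimod members held a UMI, below the 23.8% of macrophage-gated barcodes. Ccl4 was detected in 53 of 77 control and 129 of 170 motolimod members, and its median cell held 3.19 and 7.14 UMIs per 10000. The top 5 cells held 54.0% and 44.5% of its UMIs. It was detected in 36.4% and 52.1% of thinned members, against 30.8% and 45.1% of macrophage-gated barcodes. Tnf stood at 31.6 and 88.3 CPM, and Xcl1, a chemokine for cross-presenting dendritic cells, at 160 and 186 CPM in 13.0% and 7.06% of cells.

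Cytotoxic genes did not share a direction. Of the 12 that entered, 1 was at least 2-fold higher and 2 were at least 2-fold lower, with a median log2 ratio of 0.15. Perforin (Prf1), which forms pores in the target membrane, stood at 708 and 625 CPM (ratio 0.883, 0.779 to 1.00). Gzma, a tryptase-like granzyme, stood at 226 and 644 CPM (ratio 2.85, 2.37 to 3.46) and was detected in 7 of 77 control and 40 of 170 motolimod cells. In control, 2 cells held at least 50% of its UMIs, and the ratio was 1.40 as a mean over cells, 1.22 in thinned cells and 13.8 without the top 5% of cells. After thinning, 6.49% and 15.4% of members held a Gzma UMI, against 0.524% and 2.45% of macrophage-gated barcodes. Gzmb, the granzyme that activates caspases, stood at 2599 and 1771 CPM, a ratio of 0.682. Its median cell lay the other way, at 8.73 and 10.2 UMIs per 10000, and the top 5 control cells held 62.5% of its UMIs.

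The granzymes next to Gzmb were lower in the motolimod members. Gzmc, Gzmf, Gzmd and Gzme lie with Gzmb on the minus strand of mouse chromosome 14, between 56117626 (the end of Gzme) and 56262260 (the start of Gzmb) in GENCODE, and arose by duplication within this cluster. Gzmc stood at 1095 and 81.2 CPM, a ratio of 0.0741 (0.0580 to 0.0936), which was 0.177 as a mean over cells, 0.159 in thinned cells and 0.0325 without the top 5% of cells. Gzme stood at 952 and 300 CPM (ratio 0.315), Gzmd at 685 and 251 CPM (ratio 0.366) and Gzmf at 1537 and 703 CPM (ratio 0.457). Few cells held most of this RNA. Gzmc was detected in 17 control and 12 motolimod cells, and 1 control cell held 47.9% of its control UMIs. For the neighbouring granzymes Gzmc to Gzmg and Gzmn together, 28 control cells (36.4%) and 44 motolimod cells (25.9%) held a UMI, and the top 5 cells held 83.8% and 55.7% of the UMIs.

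The 250 bases before the start of these genes are shown because the genes that were lower together are duplicates whose upstream sequences can be compared. They are RefSeq sequences of build GRCm38.p6, all from the minus strand: Gzmb at chr14:56262335-56262584, Gzmc at chr14:56234658-56234907, Gzmf at chr14:56211408-56211657, Gzmd at chr14:56132594-56132843 and Gzme at chr14:56120626-56120875. The RefSeq start of Gzmb, from which its window is counted, lies upstream of the GENCODE start given above. Capitals mark matches to 2 motifs, the RUNX motif TGTGGT (or its reverse complement ACCACA) and the AP-1 motif TGANTCA, which is its own reverse complement in these letters.
Gzmb: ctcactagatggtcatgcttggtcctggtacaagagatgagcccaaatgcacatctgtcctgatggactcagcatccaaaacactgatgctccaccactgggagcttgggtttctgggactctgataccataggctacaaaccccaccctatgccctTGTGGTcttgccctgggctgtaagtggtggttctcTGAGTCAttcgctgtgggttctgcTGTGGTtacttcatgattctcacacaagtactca
Gzmc: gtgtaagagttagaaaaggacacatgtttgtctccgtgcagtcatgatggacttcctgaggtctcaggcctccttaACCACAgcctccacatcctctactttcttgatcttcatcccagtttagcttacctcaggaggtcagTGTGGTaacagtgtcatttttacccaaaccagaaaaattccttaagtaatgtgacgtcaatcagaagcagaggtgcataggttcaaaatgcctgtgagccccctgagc
Gzmf: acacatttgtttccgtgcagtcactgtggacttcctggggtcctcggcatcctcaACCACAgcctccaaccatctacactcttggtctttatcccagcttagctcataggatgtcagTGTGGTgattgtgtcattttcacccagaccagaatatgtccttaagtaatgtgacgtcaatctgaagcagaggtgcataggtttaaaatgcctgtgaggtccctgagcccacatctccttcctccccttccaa
Gzmd: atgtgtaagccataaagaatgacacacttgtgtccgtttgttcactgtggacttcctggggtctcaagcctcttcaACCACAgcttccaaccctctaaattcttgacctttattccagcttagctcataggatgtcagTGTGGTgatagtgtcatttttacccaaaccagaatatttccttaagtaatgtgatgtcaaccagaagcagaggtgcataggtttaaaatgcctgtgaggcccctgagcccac
Gzme: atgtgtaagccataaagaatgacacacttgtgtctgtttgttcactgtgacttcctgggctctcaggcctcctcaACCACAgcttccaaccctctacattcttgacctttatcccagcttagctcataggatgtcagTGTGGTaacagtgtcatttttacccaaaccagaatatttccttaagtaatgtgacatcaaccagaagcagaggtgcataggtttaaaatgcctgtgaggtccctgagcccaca

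Gzmc, Gzmd, Gzme and Gzmf each held 1 TGTGGT and 1 ACCACA, in the same order. Gzmb held 2 TGTGGT and, between them, the AP-1 match. A RUNX match was present in 14.0% of all 32851 upstream sequences of the same length and an AP-1 match in 6.75%. The STAT motif TTCNNNGAA and the interferon-stimulated element, searched on both strands, were not found in these 5 windows and were in 7.02% and 2.98% of all sequences. Upstream of Gzmc, 80.5% of aligned positions were identical to Gzmd and 80.9% to Gzme, while Gzmb shared 47.5% with Gzmc. These matches describe letters and not binding.

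The same likeness limits how reads could be assigned. Over the last 300 bases of the transcript, which a 3′ library samples, Gzmd, Gzme, Gzmf and Gzmg were 82.4% to 87.9% identical in pairs, with shared runs of 49 to 72 bases. Counts for these 4 genes may therefore be split between them. Gzmc was 45.5% to 52.4% identical to them there, and its longest shared run was 10 bases.

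Cells with the neighbouring granzymes more often held Gzmb and Prf1 in both libraries. After thinning to 1000 UMIs, 19 of 77 control and 35 of 169 motolimod cells held a UMI of Gzmc to Gzmg or Gzmn. Gzmb was present in 94.7% of those control cells and 41.4% of the rest, and in 85.7% and 47.0% in motolimod. Prf1 was present in 68.4% against 24.1% in control and in 51.4% against 28.4% in motolimod. Serpinb9b, a member of the granzyme-inhibiting serpin family, was present in 31.6% against 1.72% and in 20.0% against 1.49%. Gzma lay the other way, at 0% against 8.62% in control and 2.86% against 18.7% in motolimod. Gzmk, another granzyme, was present in 21.1% against 20.7% in control and in 8.57% against 17.9% in motolimod. Of 20 genes compared in this way, 12 had the higher share in the cells with these granzymes in both libraries and 1, Gzma, the lower share in both. The order differed between the libraries for 6, Pdcd1 and Cxcr6 among them, and 1 had equal shares in a library. The genes described were chosen after their values were seen, and no difference was tested. The same count over all genes was not made, so the 12 of 20 cannot be read as a trait of these cells.

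**Figure D3:**
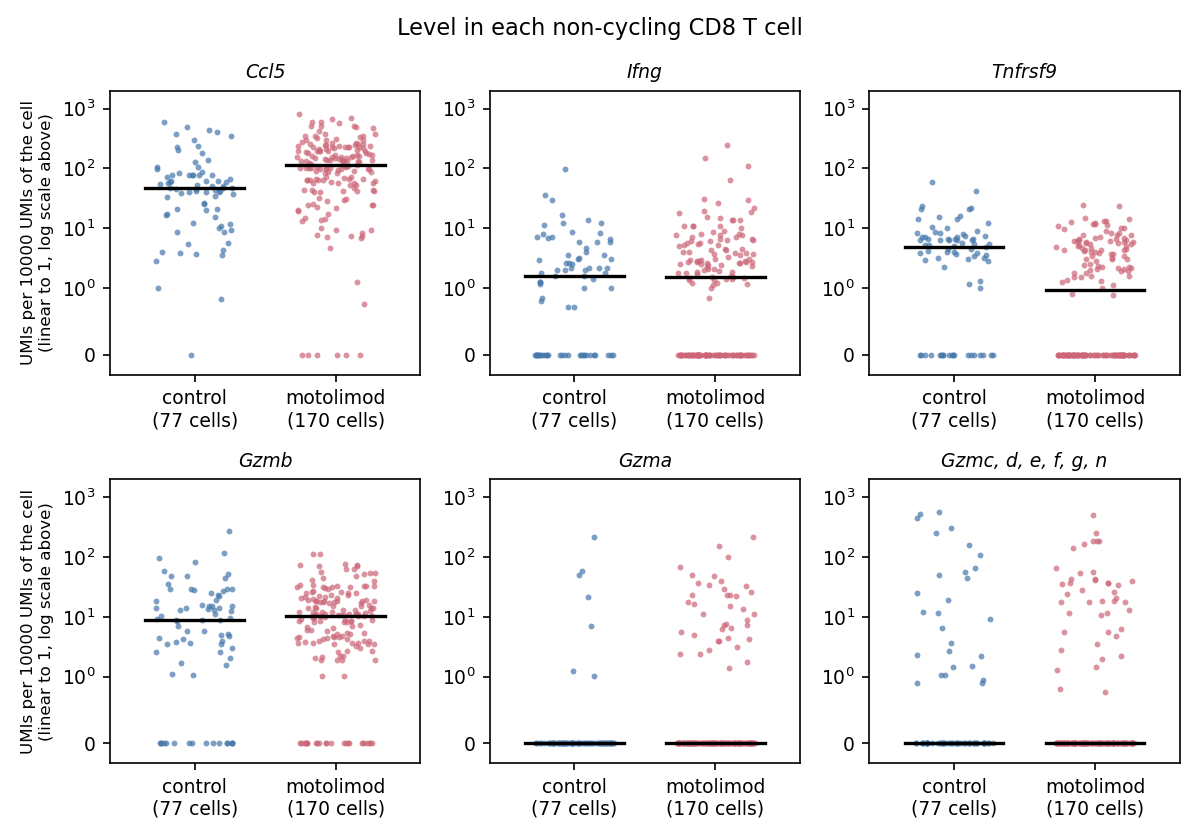
UMIs of each gene per 10000 UMIs of the cell (y axis, linear to 1 and on a log scale above) in every control member (blue) and motolimod member (red), with the median as a black line. The Ccl5 median is 46.7 in control and 112 in motolimod, the Tnfrsf9 median is 4.89 and 0.965, and the granzymes next to Gzmb are at 0 in most cells of both libraries.

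Of the tumour necrosis factor receptor family, Tnfrsf4 and Tnfrsf9 were at least 2-fold lower in the motolimod members. Tnfrsf4 (OX40), a costimulatory receptor induced after activation, stood at 417 and 124 CPM, a ratio of 0.297 (0.237 to 0.370). It was detected in 45 of 77 control and 45 of 170 motolimod cells, and in 23.4% and 10.7% after thinning. Tnfrsf9 (4-1BB), which is induced by receptor stimulation and costimulates CD8 T cells, stood at 721 and 336 CPM, a ratio of 0.466 (0.402 to 0.538). Its median cell held 4.89 and 0.965 UMIs per 10000, and 40.3% and 22.5% of thinned members held a UMI. Tnfrsf18 (GITR), the neighbour of Tnfrsf4 on chromosome 4, stood at 356 and 203 CPM (ratio 0.571). Among macrophage-gated barcodes, at most 2.99% held a UMI of any of the 3. Tnfrsf4 is also on the list of 7 markers of CD4 and regulatory T cells, which summed to 826 and 515 CPM, with 2 of the 4 genes that entered at least 2-fold lower (Tnfrsf4 and Ikzf2) and a median log2 ratio of -0.85. Cd4 and Foxp3, which the selection required to be 0, were at 0, and Cd40lg stood at 3 control and 9 motolimod UMIs. Of the CD3 and CD8 barcodes, 7.95% in control and 1.07% in motolimod failed on Foxp3 and 6.82% and 1.71% on Cd4. The part of such cells in these ratios was not tested.

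Other costimulatory receptors did not share that direction. Cd28, the main costimulatory receptor of T cells, stood at 176 and 267 CPM, Icos, a relative of Cd28, at 121 and 197 CPM, and Cd226, an activating receptor for nectins, at 46.5 and 101 CPM (ratio 2.18). Over the 9 costimulatory receptors that entered, 1 was at least 2-fold higher and 2 lower, with a median log2 ratio of 0.048. Nrgn, a calmodulin-binding protein, stood at 505 and 237 CPM (ratio 0.470).

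Genes of the exhaustion list lay close to the median of all genes when all UMIs were summed. Of the 12 that entered, none was at least 2-fold higher and 1 was at least 2-fold lower, with a median log2 ratio of 0.017. In thinned cells 11 entered, 2 were at least 2-fold higher and 1 lower, and the median was -0.26. Pdcd1 stood at 394 and 371 CPM (ratio 0.943, 0.799 to 1.11), Havcr2 (TIM-3) at 161 and 174 CPM, Lag3 at 361 and 407 CPM and Tigit at 289 and 245 CPM. All 4 encode inhibitory receptors. Ctla4, another, stood at 226 and 286 CPM. Before thinning, with control members the deeper, Pdcd1 was detected in 79.2% of control and 61.2% of motolimod members. Havcr2 was detected in 63.6% and 44.7% and Lag3 in 77.9% and 64.1%. The median cell held 3.21 and 2.09 Pdcd1, 1.27 and 0 Havcr2 and 2.69 and 2.86 Lag3 UMIs per 10000. Of the transcription factors on the list, 2 stood lower: Tox, which is needed for exhausted cells to persist, at 156 and 93.3 CPM (ratio 0.598, 0.443 to 0.805), and Eomes, a T-box factor, at 71.5 and 34.5 CPM (ratio 0.483, 0.299 to 0.775). After thinning, Tox was held by 11.7% and 8.28% of members and Eomes by 11.7% and 5.33%. Ikzf2 (Helios) stood at 113 and 55.8 CPM and Irf8, an interferon regulatory factor, at 475 and 287 CPM. Tbx21 (T-bet), which drives effector differentiation, stood at 110 and 123 CPM, and Id2, an inhibitor of E proteins, at 497 and 712 CPM.

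Inhibitory and cytotoxic genes were often detected in the same cell. The genes looked for were Pdcd1, Havcr2, Lag3, Tigit and Tox (inhibitory) and Gzmb, Prf1, Gzma and Gzmk (cytotoxic). After thinning to 1000 UMIs, an inhibitory gene together with a cytotoxic gene was held by 53.2% of control (41 of 77, interval 41.5 to 64.7) and 49.7% of motolimod members (84 of 169, 41.9 to 57.5). Cells with a cytotoxic but no inhibitory gene were 20.8% and 22.5%, cells with an inhibitory but no cytotoxic gene 16.9% and 13.0%, and cells with neither 9.09% and 14.8%. The intervals of these shares overlapped between libraries. Detection depended on depth: at 2000 UMIs per cell, both kinds were held by 70.3% and 67.3%.

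Tcf7, a factor of naive and stem-like T cells, was detected in 3 control and 11 motolimod cells. Of the 14 naive and memory genes, 4 entered, of which 2 were at least 2-fold higher (Ly6c2 and Klf2) and 1 lower (Ccr7), with a median log2 ratio of 0.78. The list summed to 1544 and 2854 CPM, and 75 of 77 and 166 of 170 members held a UMI of it. The median was 0.42 as a mean over cells and 0.17 in thinned cells. Ccr7, the receptor that guides cells to lymph nodes, stood at 166 and 56.8 CPM (ratio 0.342) in 17 and 10 cells, and 1 control cell held 41.0% of its control UMIs. Ly6c2, a surface protein of effector and memory CD8 T cells, stood at 1098 and 2253 CPM, a ratio of 2.05 (1.88 to 2.24). Its median cell held 5.78 and 19.1 UMIs per 10000, and 52.0% and 70.4% of thinned members held a UMI, against 12.6% and 22.3% of macrophage-gated barcodes. Klf2, a factor of quiescence and recirculation, stood at 54.8 and 206 CPM, which was 15.2% and 36.2% of the level over other barcodes.

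Genes of migration lay above the median of all genes. Of 12 chemokine receptor and adhesion genes, 10 had a ratio above 1, with a median log2 ratio of 0.61. At least 2-fold higher were 4 and lower 1, beside 2.31% and 1.29% of all genes. Itgb7, an integrin chain for gut and epithelial homing, stood at 21.6 and 140 CPM, a ratio of 6.48 (3.67 to 12.5). It was detected in 11 of 77 control (14.3%) and 60 of 170 motolimod members (35.3%). After thinning, 0 of 77 control members, which allows a share with a UMI of up to 3.90%, and 13.0% of motolimod members held a UMI, against 2.47% and 5.16% of macrophage-gated barcodes. Ccr2, the receptor for monocyte chemokines, stood at 16.6 and 88.3 CPM, and its thinned shares of 1.30% and 8.28% were below the 6.16% and 19.3% of macrophage-gated barcodes. Cd44, the hyaluronan receptor, stood at 33.2 and 86.2 CPM, which was 22.6% and 32.4% of its level over other barcodes. Cxcr6, a receptor of tissue-resident cells, stood at 371 and 540 CPM.

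The title of the study names recruitment of T cells by platelet factor 4 (Pf4), a chemokine of platelets and myeloid cells that binds a form of the receptor CXCR3 in humans. Cxcr3 stood at 26.6 CPM in control members (16 UMIs in 12 cells) and 78.1 CPM in motolimod members (77 UMIs in 39 cells), a ratio of 2.94 (1.70 to 5.40). The share of thinned members with a Cxcr3 UMI was 6.49% and 7.10%, against 0.0249% and 0.215% of macrophage-gated barcodes, and no order was read from these shares. Pf4 itself stood at 3.32 and 92.3 CPM, which was 0.922% and 5.63% of the level over other barcodes, and 1 motolimod cell held 62.6% of its UMIs. Its thinned shares of 1.30% and 5.92% lay below the 26.8% and 52.9% of macrophage-gated barcodes. Cxcl10, a Cxcr3 ligand, stood at 34.9 and 207 CPM in 9 and 16 cells, with 46.1% of the motolimod UMIs in 1 cell. Ppbp had 0 UMIs in members of both libraries.

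**Figure D4:**
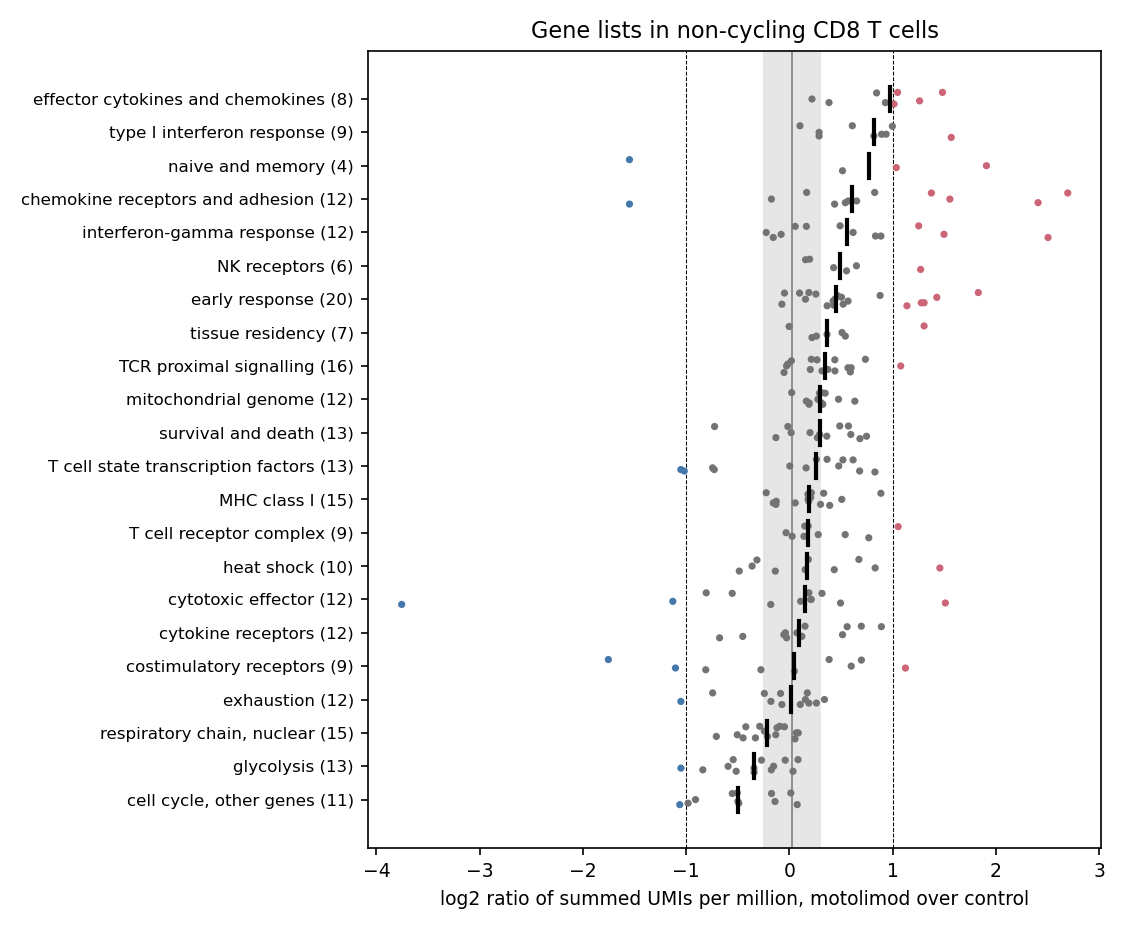
Log2 ratio of motolimod to control CPM (x axis) of each gene that entered, by gene list with at least 3 such genes (y axis, number of genes in brackets), leaving out markers of other cells. Black bars mark list medians, the grey band and line the quartiles and median of all 2549 genes, and red and blue points genes at least 2-fold higher or lower. The effector cytokine list has the highest median, 0.97, and the list of other cell cycle genes the lowest, -0.50.

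Interferon-stimulated genes lay above the median of all genes, with few past 2-fold. All 9 type I interferon genes that entered had a ratio above 1 and 1, Isg15, was at least 2-fold higher, with a median log2 ratio of 0.82, and the 28 listed genes summed to 897 and 1584 CPM. Isg15, a ubiquitin-like protein induced by type I interferon, stood at 81.4 and 241 CPM (ratio 2.97, 2.17 to 4.12) and was detected in 28.6% and 49.4% of members. Its level was 11.0% and 24.2% of that over other barcodes, and 42.6% and 36.9% of thinned macrophage-gated barcodes held a UMI, against 10.4% and 19.5% of members. Zbp1, a sensor of nucleic acids, stood at 79.8 and 159 CPM. Of 12 interferon-γ response genes, 3 were at least 2-fold higher, beside 2.31% of all genes, with a median log2 ratio of 0.55. They were the guanylate-binding protein genes Gbp2, at 16.6 and 94.4 CPM, and Gbp4, at 39.9 and 113 CPM, and the immunity-related GTPase gene Igtp, at 51.5 and 123 CPM. Gbp4 and Igtp reached 134% and 124% of the level over other barcodes in the motolimod library, and Gbp2 28.9%. Among members with no cycle gene detected, the median log2 ratios of the type I and interferon-γ lists were 0.40 and 0.24, and none of the 9 type I genes was past 2-fold.

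Of 20 genes of the early response to stimulation that entered, 18 had a ratio above 1. At least 2-fold higher were 5, beside 2.31% of all genes. The median log2 ratio was 0.45, and 0.21 in cells with no cycle gene detected. The transcription factor genes Fos, Fosb, Jun and Egr1 stood at 44.9 and 121, 28.3 and 100, 61.5 and 149, and 46.5 and 102 CPM, at 4.28% to 40.2% of their levels over other barcodes. Cd69, an early activation receptor that holds cells in tissue, stood at 69.8 and 172 CPM and was 4.18 and 4.35 times its level over other barcodes. Its ratio of 2.47 was 1.31 as a mean over cells, 1.02 in thinned cells and 1.66 in cells with no cycle gene, and its thinned share was 11.7% and 13.6%. MHC class I genes, 15 in all, included none past 2-fold, with a median log2 ratio of 0.19.

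Glycolysis genes lay below the median of all genes, and genes of the mitochondrial genome above it. Of 13 glycolysis genes, 11 had a ratio under 1 and 1 was at least 2-fold lower, with a median log2 ratio of -0.34. Tpi1, which interconverts triose phosphates, stood at 525 and 254 CPM (ratio 0.483, 0.408 to 0.572) and Ldha, which makes lactate, at 1373 and 768 CPM (ratio 0.560). Gapdh, an enzyme of the same path, stood at 1873 and 1985 CPM. The 15 nuclear genes of the respiratory chain had a median log2 ratio of -0.21 with none past 2-fold, and the 12 genes of the mitochondrial genome, all with a ratio above 1 and none past 2-fold, 0.30. Cell cycle genes outside the selection had a median of -0.50, with Dut, which keeps uracil out of DNA, at 356 and 170 CPM. In cells with no cycle gene detected that median was 0.15, while the glycolysis median was -0.39. The glycolysis median was -0.19 as a mean over cells, with no gene at least 2-fold lower, and -0.20 in thinned cells. Both lie within the quartiles of all genes.

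Genes of the T cell receptor complex, 9 in all, had a median log2 ratio of 0.18, and 1 of them was at least 2-fold higher. The β-chain constant genes Trbc1 and Trbc2, which are near-identical copies, stood at 158 and 328 CPM and at 288 and 490 CPM. A UMI of a β-chain variable gene was found in 72 of 77 control and 137 of 170 motolimod members, over 19 genes in each library. Trbv13-2 was the most frequent in control, in 13 of 72 cells (18.1%, 9.98 to 28.9), and was found in 17 of 137 motolimod cells (12.4%, 7.40 to 19.1). Trbv1 was the most frequent in motolimod, in 23 of 137 cells (16.8%, 10.9 to 24.1), against 2 of 72 control cells (2.78%, 0.338 to 9.68). Among α-chain genes, Trav5-4 was found in 2 of 40 control and 15 of 101 motolimod cells and Trav6-4 in 0 of 40 and 13 of 101. Variable genes have near-identical copies, so these counts may be split between relatives.

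The cycling CD8 T cells of the same libraries, 54 control and 36 motolimod cells, showed some of these differences and not others. Tnfrsf4 stood at 323 and 98.1 CPM and Tnfrsf9 at 558 and 294 CPM in cycling cells, the same direction as in the members. Ccl5 was lower in cycling cells, at 1056 and 4469 CPM, and again higher with motolimod. Gzmc stood at 1074 and 498 CPM. The effector cytokine list had a median log2 ratio of 0.97 in members and -0.13 in cycling cells, while the type I interferon list had 0.82 and 0.87 and glycolysis -0.34 and -0.59. The difference between cycling and non-cycling cells in these ratios was not tested.

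The leading ratios differed in how far they rested on single cells. Each of the 24 was recomputed under 9 alternatives, including a mean over cells and leaving out, for each gene, the 5% of members with most UMIs (4 control and 9 motolimod cells). All of the 9 alternatives kept 6 of the 12 lowest genes at least 2-fold lower: Gzmc, Gzmd, Gzme, Nrgn, Tnfrsf4 and Tnfrsf9. The granzymes among them still rested on few cells. Gzmd was detected in 10 of 77 control and 19 of 170 motolimod cells, and Gzme in 14 and 21. In control, the top 5 cells held 93.3% of the Gzmc, 92.5% of the Gzmd and 87.8% of the Gzme UMIs. None of the 12 highest leading genes stayed at least 2-fold higher under all 9. Some higher genes outside the 24, which missed the limits of level set for leading genes, did stay past 2-fold under all 9. They included Itgb7 (ratios of 4.252 to 7.809), Gbp4 (2.513 to 3.028), Cd226 (2.105 to 3.189) and Klf2 (2.317 to 3.867). So did Cxcl2 (5.203 to 20.52), Il1b (2.856 to 7.814) and Pf4 (3.992 to 56.42). Ccr2 (2.776 to 7.142), Fos (2.014 to 3.645) and Fosb (2.164 to 4.519) did too. From Klf2 on, the genes just named stood below their levels over other barcodes in the motolimod library. The part of RNA from other cells in their ratios was not tested. Other higher genes did not stay past 2-fold under all 9, such as Cxcr3 (1.367 to 3.161) and Tnf (1.536 to 5.467). Ccl5 ranged from 1.73 to 2.48, Ly6c2 from 1.62 to 2.23 and Ifng from 1.26 to 2.17. Without the top 5% of cells, the ratio of Ccl3 was 0.969 and that of Cxcl10 0.895. Areg, a growth factor gene detected in 9 motolimod cells, then had no UMI left in that library, and its ratio of 0.301 is against a floor of 3 counts.

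**Figure D5:**
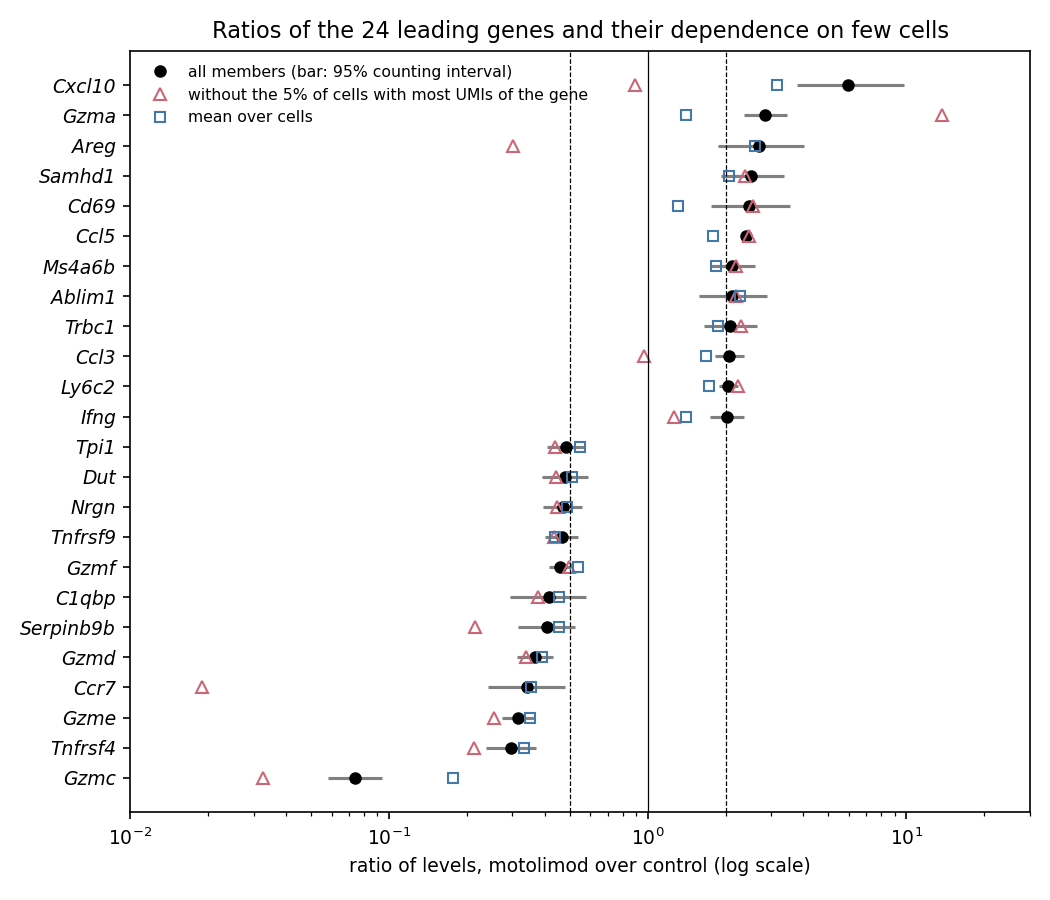
Ratio of motolimod to control levels (x axis, log scale) for the 12 highest and 12 lowest leading genes (y axis), over all members (black, with 95% counting intervals), as a mean over cells (blue squares) and without the 5% of cells with most UMIs of the gene (red triangles). Samhd1, Ccl5, Tnfrsf4 and Tnfrsf9 keep their side of 1 in all 3, and Ccl3, Cxcl10 and Areg cross it; the Areg triangle is against a floor of 3 counts.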

How the data were processed

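The authors deposited unnormalized UMI counts for each gene in each barcode, per the file headers. They were made with Cell Ranger on mm10, whose version is 5.0.1 in the submitters' processing notes but 7.1.0 in the file headers. The members, the gene lists and the rule for named genes were chosen with earlier results of these data known.

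Counts were summed over members per library and divided by all member UMIs (CPM), with exact Poisson intervals. Ratios have exact conditional binomial intervals and shares Clopper-Pearson intervals. With 1 library per group no test was made. Named genes were the selection genes, the 12 highest and 12 lowest ratios, up to 4 genes per list, the platelet factor 4 axis and the 10 genes most above other barcodes. Other genes of the lists were named after their values were seen. Thinning drew 1000 UMIs per cell at random, and left out 1 motolimod member with fewer. Macrophage-gated barcodes served as a comparison for detection, which does not separate free RNA from RNA of the macrophages themselves. Memory genes were left out of the counts of genes detected together, and some genes of the lists are not reported here by name. Gene positions are from GENCODE. The computation was tested on simulated data. Scrublet called 2 control and 1 motolimod doublets by its own threshold, too few to be used. No doublet was removed, and barcodes with the highest scores were left out as an alternative. Python 3.11.15, numpy 2.4.6, scipy 1.17.1, pandas 2.3.3, scanpy 1.11.5 and matplotlib 3.10.9 were used.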

Additional observations from a re-analysis of the deposited data

How the results depend on the processing

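The share ratio of 1.77 was 1.65 to 1.76 with both Cd8a and Cd8b1 required, without the highest doublet scores, or without cells holding core genes of another lineage. It was 2.47 with the strict cell filter (1000 genes, 2000 UMIs and 5% mitochondrial UMIs), 2.60 over CD3 barcodes, 2.56 for cells with no cycle gene (chosen after seeing the data) and 1.14 with the selection on barcodes thinned to 1000 UMIs. The counts of 59 higher and 33 lower genes became 237 and 191 in thinned cells, where fewer UMIs stand behind each gene, and 79 and 53 in cells with no cycle gene. They were 69 and 72 without each gene's top 5% of cells (also chosen after seeing the data), 1176 and 788 with no low-value filter, 10 and 10 with a mean of at least 200 CPM, and 256 and 147 at 1.5-fold. All 59 and 33 had counting intervals without 1, which a mean of 50 CPM and a 2-fold ratio bring with them. Those intervals leave out the spread between cells. Under median-of-ratios scaling 56 of the 59 and 33 of the 33 genes stayed past 2-fold, and as a mean over cells 44 and 26. Leaving out the highest doublet scores reversed the median log2 ratio of the NK gene list from 0.96 to -0.040. Leaving out the top 5% of cells reversed the ratios of Areg (0.301), Ccl3 (0.969) and Cxcl10 (0.895). Of the list medians under alternatives, 236 stayed within their interval and 6 moved, and of the leading ratios 162 and 51. For a list the interval came from the ordered ratios of its genes, and for short lists it was their full range. A median could therefore fall far and stay within it. That of the naive and memory genes did so, from 0.78 to 0.17 in thinned cells. The cause of these moves was not tested. At 50 CPM, 30.1 control and 49.3 motolimod UMIs stood behind a gene, which limits precision for low genes. No paired analysis was possible because each group has 1 library. Leaving out a library would leave no comparison.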

Other observations

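Rgs16 and Tff1, which are outside the lists, stood far above their levels over other barcodes. They were not particular to the members. Cycling CD8 T cells held Rgs16 at 440.4 CPM in control and 243.5 CPM in motolimod, and Tff1 at 58.28 and 10.9 CPM. Rgs16, a regulator of G protein signalling, stood at 618 CPM in control and 445 CPM in motolimod members, which was 37.7 and 33.1 times its level over other barcodes. Tff1, a trefoil peptide gene usually described in stomach epithelium, stood at 138 and 75.1 CPM, 40.3 and 52.0 times its level elsewhere, in 14 and 22 cells, and after thinning no macrophage-gated barcode held a UMI of it. The epithelial genes Krt8 and Krt18 had 0 control UMIs and 1 and 0 motolimod UMIs in members. Among members, Tff1 was therefore not accompanied by these keratins. In cycling CD8 T cells, Krt8 stood at 152.4 CPM in control and 12.72 CPM in motolimod, and Krt18 at 72.43 and 1.817 CPM. There, both keratins were present beside Tff1 and, like it, lower with motolimod. The source of the Tff1 RNA was not tested.

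Before thinning, Itgb7 was less frequent among members with the granzymes next to Gzmb in both libraries. It was detected in 3 of the 44 motolimod members with a UMI of those granzymes (6.82%) and in 57 of the 126 without (45.2%), and in 1 of 28 (3.57%) and 10 of 49 (20.4%) in control. After thinning to 1000 UMIs the motolimod counts were 0 of 35 and 22 of 134. The control counts were 0 of 19 and 0 of 58, from which no order can be read. This pair was picked out after the values were seen and was not tested.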
